A study of Homo sapiens with 16 samples.

Results

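SOD2 and 7 further genes of the antioxidant defence, NFE2L2, GCLC, GCLM, TXNRD1, NQO1, HMOX1 and FTH1, were examined for chromatin bound by p65 in colon cancer cells treated with TNFα. The 8 genes are a named list among 19970 protein-coding genes. Each was read in bins of 200 bp from 30 kb upstream to 10 kb downstream of its gene record, introns included, which gave 4547 bins. A bin was listed where the mean of a group of ChIP libraries was at least 2 and at least 4 times the input of the same cells. In all, 15 bins were listed, at 5 of the 8 genes (62.5%), and a listed bin stood near 31.4% of all protein-coding genes. The listed share of the bins was 0.33% around the 8 genes, 0.12% around all protein-coding genes and 0.0829% over the genome.

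The cells were HT29 and SW480, both established lines of human colon cancer. Each line carried either the empty vector (mock) or an ERβ construct (ERβ), both stably transfected, so ERβ was exogenous in all ERβ cells. All 4 groups received TNFα at 30 ng/ml for 30 min and were cross-linked with DSG and formaldehyde, and no library of unstimulated cells was analysed here. Each group had 3 p65 ChIP libraries and 1 input, 16 libraries in all. The inputs were taken from the sample titles, although the labels list the p65 antibody for them as well. The study's methods call the replicates biological, and the sources used here do not say what was kept separate between them. The p-values therefore rest on the spread between these libraries, pooled over bins as described below.

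p65 (RELA) is a DNA-binding subunit of NFκB, which TNFα releases into the nucleus, where it binds κB motifs. SOD2, the mitochondrial superoxide dismutase, is a classical TNFα target and is known for an NFκB-responsive enhancer in its second intron. The other genes are best known as targets of NRF2 (encoded by NFE2L2), which binds antioxidant response elements and raises glutathione synthesis (GCLC, GCLM), thioredoxin reduction (TXNRD1), quinone reduction (NQO1), haem breakdown (HMOX1) and iron storage (FTH1).

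Sequence at the listed bins is shown first, because the 2 SOD2 bins described next differ in the motifs they hold. The sequences are the + strand of GRCh38, 5′ to 3′, with matches to the κB motif or to the AP-1 motif in capitals, and with flanking bases in lower case. The AP-1 letters were TGACTCA or TGAGTCA, and the κB motif was searched by its degenerate consensus on both strands, without overlap between the 2 motifs.
SOD2 intronic bin, κB match at chr6:159691242-159691251: tttcacaactGGGGTATTCCccagtctctc
SOD2 upstream bin, chr6:159701601-159701800, AP-1 match: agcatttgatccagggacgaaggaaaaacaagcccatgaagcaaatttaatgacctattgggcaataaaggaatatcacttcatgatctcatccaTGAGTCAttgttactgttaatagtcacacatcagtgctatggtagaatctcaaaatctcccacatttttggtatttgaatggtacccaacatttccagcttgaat
FTH1 upstream bin, chr11:61972801-61973000, κB matches: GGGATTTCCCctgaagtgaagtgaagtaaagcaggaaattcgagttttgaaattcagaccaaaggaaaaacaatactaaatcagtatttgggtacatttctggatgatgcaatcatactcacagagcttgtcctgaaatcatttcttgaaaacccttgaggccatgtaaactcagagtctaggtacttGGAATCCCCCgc
NFE2L2 promoter bin, chr2:177264801-177265000, κB match: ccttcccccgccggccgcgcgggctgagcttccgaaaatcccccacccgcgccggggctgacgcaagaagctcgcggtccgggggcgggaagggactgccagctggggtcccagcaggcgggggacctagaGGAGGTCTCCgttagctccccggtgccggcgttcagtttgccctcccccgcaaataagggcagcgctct
NOB1 promoter bin in the NQO1 window, 1 of its κB matches, chr16:69754834-69754843: cgtcccggagGGAGCTCCCCgtacctgcag

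A κB match stood in 5 of the 15 bins (33.3%), in 38.6% of all 12569 listed bins of the genome and in 2.91% of all bins. The fifth such bin was at GCLC, 601 bp downstream of the start site. The AP-1 match of the SOD2 upstream bin was the only one among the 15 bins, against 9.88% of all listed bins. The letters TGACNNNGC, a core of the antioxidant response element read on both strands, were in 0 of the 15 bins and in 9.01% of all listed bins.

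Values are tag density averaged over a bin, scaled by the authors to 10000000 tags per library, so the depth behind a value cannot be read from the tracks. Differences are on the log2(signal + 1) scale, which understates the change of low bins, and each is given with its standard error (SE). They come from limma fits over all listed bins or all promoters, with Benjamini-Hochberg adjustment and a threshold of 0.05. These fits draw the spread of each bin or promoter towards a trend over all those tested. The SE and p-value of a bin thus do not measure the spread of its own libraries alone. Since a bin was listed through its highest group, a difference between groups in a bin listed in few groups in part follows from the listing. The count of bins called was also taken over bins chosen by their mean in all 12 libraries. These bins also had to pass the limit of fold over input in any group. Their choice thus still depends in part on a single group, so that count cannot remove the effect of the listing.

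The libraries did not stand at one level. Over the 12569 listed bins, the median signal was 3.08 and 2.55 in the HT29 mock and HT29 ERβ libraries numbered 1, and 1.30 to 1.63 in the other 4 HT29 libraries. It was 1.13 to 1.45 in the SW480 mock libraries and 1.98 to 3.26 in the SW480 ERβ libraries. Median scaling, used below, brings the libraries to one level by a median over these same bins, or over the promoters. It removes any shift shared by most bins, and cannot tell a shift in library level from one in binding. Replicates correlated at 0.812 to 0.911 over these bins, and no pair of libraries was identical. Over the exons of ESR2, the ERβ gene, ChIP signal relative to its introns was 2.42 to 7.07 in ERβ libraries and 1.04 to 1.61 in mock libraries, as the labels say.

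SOD2 held 2 listed bins, and the higher of them was not the same in the 2 lines. The bin centred 1941 bp downstream of the start site (chr6:159691201-159691400) lies in intron 2 of the canonical transcript, which has 5 exons, and within a longer exon of another SOD2 transcript. Its signal was 4.42, 1.73 and 2.75 in HT29 mock and 4.0, 2.49 and 2.43 in HT29 ERβ. In SW480 it was 0.516, 0.743 and 1.06 in mock and 1.01, 1.98 and 1.18 in ERβ. The mock libraries of the lines did not overlap, and the HT29 inputs (0.29 and 0.37) were below the SW480 inputs (0.48 and 0.694). The bin was listed in HT29 mock and HT29 ERβ only.

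The second SOD2 bin, at -8459 bp (chr6:159701601-159701800), lies in an intron of a SOD2 transcript with an upstream start and was listed in SW480 ERβ only. Its signal was 2.67, 4.89 and 3.94 in SW480 ERβ and 2.24, 1.93 and 1.56 in SW480 mock. In HT29 it was 1.89, 0.946 and 0.932 in mock and 0.39, 0.678 and 1.30 in ERβ. Every SW480 ERβ library was above every other library, and the SW480 mock libraries overlapped those of HT29 mock. SW480 mock lay just under both limits, with a mean of 1.91 at 3.98 times its input. Relative to their inputs the means were 5.23 times in HT29 mock, 2.13 in HT29 ERβ and 7.37 in SW480 ERβ. The nearest κB match was 531 bp from the bin's centre.

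**Figure D1:**
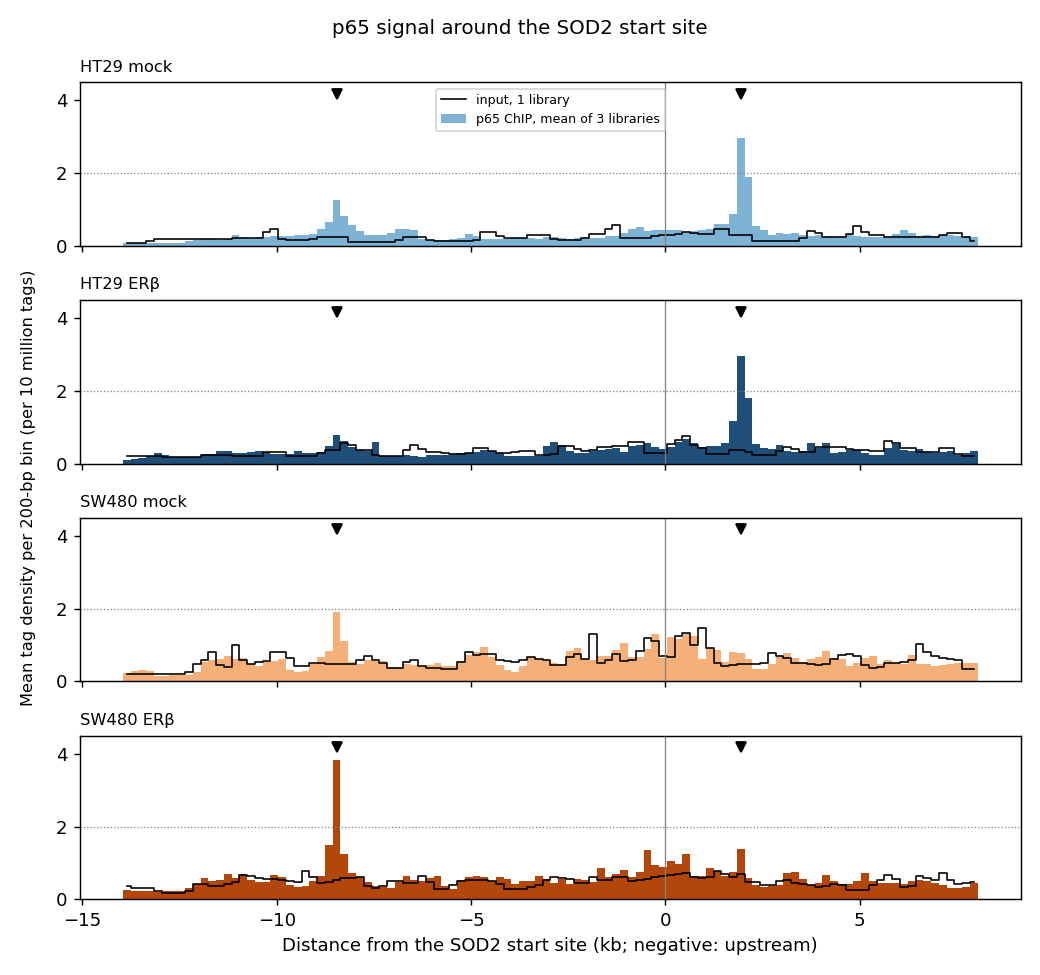
Mean tag density per 200-bp bin (y axis, per 10000000 tags) against distance from the SOD2 start site (x axis, kb) in the 4 groups, with the ChIP mean of 3 libraries as bars and the single input as a black line. Triangles mark the 2 listed bins and the dotted line marks a density of 2. HT29 mock and HT29 ERβ peak in the intron at 1941 bp (means of 2.97 and 2.97), and SW480 ERβ peaks at -8459 bp (mean of 3.83).

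Within a library, scaling and depth cancel in the ratio of the intronic bin to the upstream bin. That ratio was 2.34, 1.83 and 2.95 in HT29 mock and 10.3, 3.67 and 1.87 in HT29 ERβ. It was 0.23, 0.385 and 0.677 in SW480 mock and 0.378, 0.405 and 0.299 in SW480 ERβ. All 6 HT29 libraries were above 1 and all 6 SW480 libraries below it, a description without a test, because each bin was listed for its level in 1 line.

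The intronic SOD2 bin was lower in SW480 mock than in HT29 mock by limma (difference -1.12, SE 0.314, adjusted p = 0.00275), and the call held without any single library. This bin was listed through the HT29 groups alone, so its differences between the lines in part follow from the listing. Between the ERβ cells of the lines the difference was -0.73 (SE 0.314, adjusted p = 0.0383, limma). It lost the threshold without HT29 ERβ replicate 1, SW480 mock replicate 1 or 2, or SW480 ERβ replicate 1 or 3 (adjusted p of 0.0519 to 0.128), and without both HT29 libraries numbered 1 (-0.56, adjusted p = 0.0526), and the 2 groups fitted alone gave 0.0519. After median scaling it was -1.21 (adjusted p = 9.37e-07) and with local input -1.24 (adjusted p = 0.000837, limma). ERβ against mock gave 0.04 (SE 0.314) in HT29 and 0.42 (SE 0.314) in SW480, with adjusted p-values of 1 and 0.255 by limma.

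The upstream SOD2 bin was higher in SW480 ERβ than in HT29 ERβ by 1.44 (SE 0.306, adjusted p = 3.56e-05, limma), a call that held without any single library. The bin was listed through SW480 ERβ alone, so its differences from that group, and their stability, in part follow from the listing. Input over the whole SOD2 window was 1.83 times as high in SW480 as in HT29. With signal divided by the local input of each line, the difference was 0.97 (adjusted p = 0.00941, limma). ERβ against mock in SW480 gave 0.71 (SE 0.306), close to the median of all listed bins (0.62), with an adjusted p of 0.0562 by limma and of 0.00162 with the replicate number as a block, and after median scaling -0.04 (adjusted p = 0.935). Between mock cells the difference was 0.39 (adjusted p = 0.328, limma), 0.70 after median scaling (adjusted p = 0.00505) and -0.16 with local input (adjusted p = 0.762).

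NFE2L2, the gene of NRF2, carried the widest p65 signal of the 8 genes by group. Its promoter bin at -173 bp was the only one of the 15 bins listed in all 4 groups, and it was the only listed bin of SW480 mock cells around these genes. Signal there was 6.37, 3.52 and 3.23 in HT29 mock, 6.11, 2.28 and 1.77 in HT29 ERβ, 4.74, 2.87 and 3.42 in SW480 mock, and 6.37, 7.46 and 5.91 in SW480 ERβ. The group means were 5.53 to 11.7 times the inputs, which lay between 0.564 and 0.79. The groups of HT29 and SW480 mock overlapped, and each SW480 ERβ library was above each SW480 mock library.

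The NFE2L2 promoter bin was higher in SW480 ERβ than in HT29 ERβ by 0.91 (SE 0.377, adjusted p = 0.0321, limma). The call was lost without HT29 ERβ replicate 2 or 3 or SW480 ERβ replicate 2 or 3 (adjusted p of 0.0591 to 0.207), and the 2 groups fitted alone gave 0.0627. After scaling each library to the median of all listed bins the difference was 0.27 (adjusted p = 0.265, limma). ERβ against mock in SW480 gave 0.71 (SE 0.377), with an adjusted p of 0.118 by limma and of 0.00199 with the replicate block, and after median scaling -0.13 (adjusted p = 0.759). In HT29 it gave -0.37 (SE 0.377, adjusted p = 1, limma).

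A second NFE2L2 bin at 1227 bp (chr2:177263401-177263600) is in intron 1 of the canonical transcript, at the start of another NFE2L2 transcript. This bin is also within 1 kb of the start of ENSG00000222043, a gene known only by its identifier. The NFE2L2 bins at 27 and -173 bp overlap that gene. Signal at 1227 bp was 4.18, 1.2 and 1.36 in HT29 mock, 2.58, 0.986 and 0.929 in HT29 ERβ, 2.10, 2.57 and 1.74 in SW480 mock, and 2.94, 3.54 and 3.2 in SW480 ERβ. SW480 ERβ was above HT29 ERβ by 0.82 (SE 0.332, adjusted p = 0.0289, limma), with no call without HT29 ERβ replicate 2 or 3 or SW480 ERβ replicate 2 or 3 (adjusted p of 0.0673 to 0.134). After median scaling the difference was 0.28 (adjusted p = 0.231, limma). SW480 ERβ minus mock was 0.44, with an adjusted p of 0.263 by limma and of 0.048 with the replicate block, and after median scaling it was -0.29 (adjusted p = 0.423). Another bin, 27 bp past the start site, was higher in SW480 ERβ than in SW480 mock by 0.81 (SE 0.329, adjusted p = 0.043, limma). The call was lost without HT29 mock replicate 3, any 1 of the SW480 mock libraries, or SW480 ERβ replicate 2 or 3 (adjusted p of 0.0544 to 0.167), and after median scaling (0.12, adjusted p = 0.785).

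FTH1 encodes the ferritin heavy chain, which stores iron and oxidises it. No bin of its promoter was listed, and 5 bins from -4266 to -5266 bp were, between genes. The highest, at -5266 bp (chr11:61972801-61973000), carries the κB matches printed above, the first of them at the border to its neighbour at -5066 bp. Its signal was 8.07, 5.10 and 4.53 in HT29 mock and 7.33, 2.88 and 2.32 in HT29 ERβ. In SW480 it was 0.981, 1.52 and 1.06 in mock and 2.53, 3.94 and 3.66 in ERβ. Both groups of HT29 lay above SW480 mock, whose mean (1.19) was near its input (0.852), and SW480 ERβ did not overlap SW480 mock.

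The -5266 bp bin was lower in SW480 mock than in HT29 mock (difference -1.63, SE 0.361, adjusted p = 0.000149, limma), which held without any single library. It was higher in SW480 ERβ than in SW480 mock by 0.99 (SE 0.361, adjusted p = 0.025, limma). That call was lost without SW480 mock replicate 1 or 3 or SW480 ERβ replicate 2 or 3 (adjusted p of 0.0743 to 0.11). After median scaling the difference was 0.31 (adjusted p = 0.362, limma). The neighbouring bin at -5066 bp differed by 0.99 between the same groups (adjusted p = 0.0229, limma), a call lost without any 1 of the SW480 mock libraries or SW480 ERβ replicate 2 or 3 (adjusted p of 0.0517 to 0.123), and after median scaling (0.28, adjusted p = 0.428). In HT29, ERβ minus mock was -0.50 at -5266 bp (SE 0.361, adjusted p = 1, limma). Between ERβ cells, SW480 minus HT29 was -0.14 (adjusted p = 0.762, limma), and -0.73 after median scaling (adjusted p = 0.00121).

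The FTH1 bins did not have one profile in all groups. At -4266 bp the means were 2.35 in HT29 mock and 1.93 in HT29 ERβ, against 5.90 and 4.18 at -5266 bp. In SW480 ERβ the bin at -4266 bp reached 3.83 and that at -5266 bp 3.38, and in SW480 mock they stood at 2.27 and 1.19, or 1.55 and 1.39 times inputs of 1.46 and 0.852. Between the ERβ cells of the lines the bin at -4266 bp was higher in SW480 by 0.76 (SE 0.339, adjusted p = 0.0492, limma), with an adjusted p of 0.0667 with the replicate block and a difference of 0.19 after median scaling (adjusted p = 0.444). It was kept only without HT29 mock replicate 1 or HT29 ERβ replicate 1, and was otherwise lost with any 1 library left out (adjusted p of 0.0537 to 0.175).

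**Figure D2:**
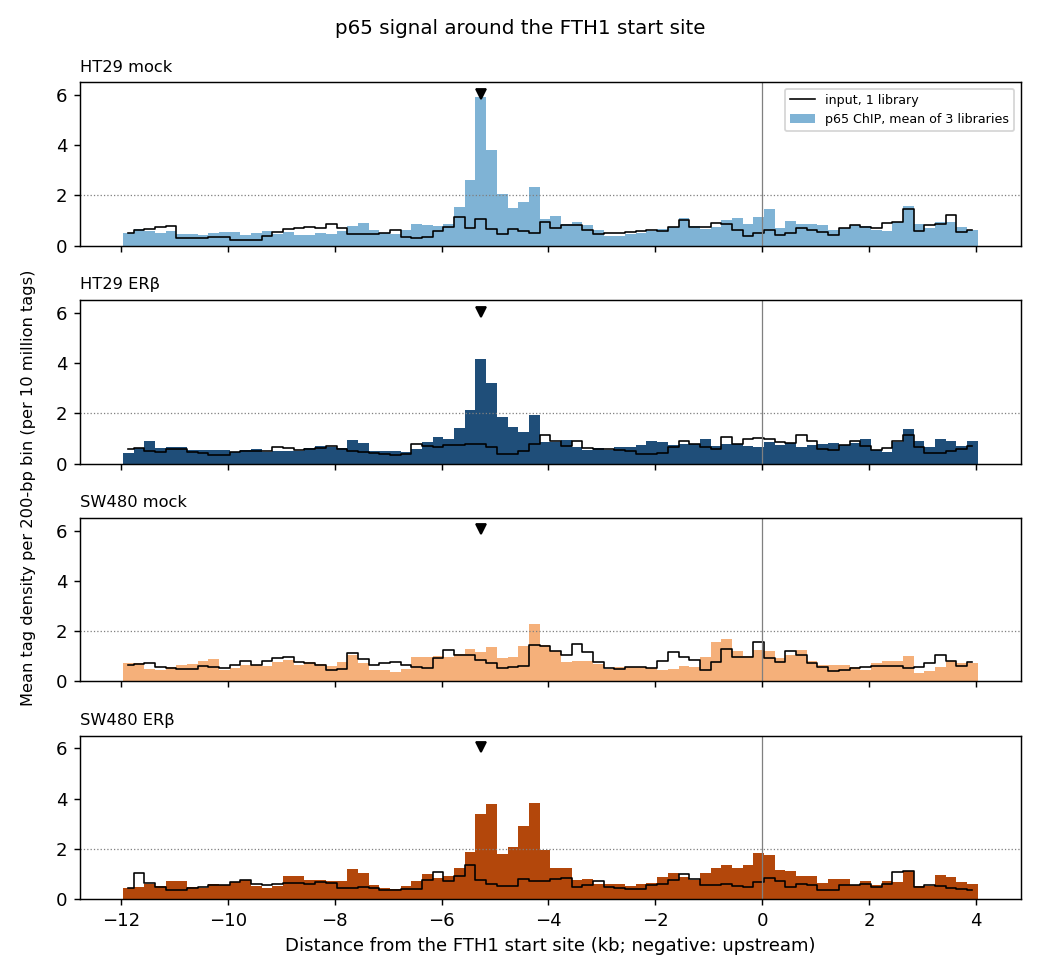
Mean tag density per 200-bp bin (y axis, per 10000000 tags) against distance from the FTH1 start site (x axis, kb) in the 4 groups, with the ChIP mean of 3 libraries as bars, the single input as a black line and a density of 2 as a dotted line. The triangle marks the highest listed bin, at -5266 bp, where the means were 5.90, 4.18, 1.19 and 3.38 in HT29 mock, HT29 ERβ, SW480 mock and SW480 ERβ.

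GCLC, the catalytic subunit of glutamate-cysteine ligase, held 2 adjoining bins just past its start site and a distant one. In the highest, at 801 bp in intron 1 (chr6:53544201-53544400), signal was 4.17, 1.87 and 1.68 in HT29 mock and 3.03, 2.00 and 1.12 in HT29 ERβ. It was 0.716, 1.03 and 1.88 in SW480 mock and 0.94, 4.47 and 3.13 in SW480 ERβ, so these groups overlapped. SW480 ERβ minus mock was 0.71 (SE 0.334), with an adjusted p of 0.0793 by limma and of 0.00169 with the replicate block, and after median scaling it was 0.05 (adjusted p = 0.917). The other contrasts of this bin had adjusted p-values of 0.107 to 1 by limma. With the single inputs subtracted, SW480 ERβ minus mock was 1.15 (adjusted p = 0.0159, limma) and SW480 mock minus HT29 mock was -1.17 (adjusted p = 0.0188).

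The distant GCLC bin, at -66399 bp (chr6:53611401-53611600), lies in an intron of a GCLC transcript with a far upstream start. It overlaps a gene known only by its identifier, ENSG00000231683, and is nearest to the canonical start of KLHL31, 54256 bp away. Signal was 4.70, 1.5 and 1.13 in HT29 mock, 2.86, 0.684 and 0.883 in HT29 ERβ, and 0.27 to 0.588 in the 6 SW480 libraries. The bin was listed through HT29 mock alone, so its difference from that group in part follows from the listing. SW480 mock was lower than HT29 mock (difference -1.17, SE 0.244, adjusted p = 6.2e-05, limma). SW480 ERβ was lower than HT29 ERβ (difference -0.72, SE 0.244, adjusted p = 0.00857, limma), and without HT29 ERβ replicate 1 the difference was -0.35 (adjusted p = 0.199, limma). Without HT29 mock replicate 1 the bin was not listed.

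NQO1, the quinone reductase, had no listed bin near its own start. The 2 bins in its window, at -28140 and -28340 bp, are at the promoter of NOB1, a ribosome assembly factor, the second of them 26 bp from the NOB1 start site. Signal in this bin (chr16:69754801-69755000) was 4.10, 2.74 and 3.31 in HT29 mock, 3.89, 1.31 and 2.40 in HT29 ERβ, 4.86, 6.07 and 4.73 in SW480 mock, and 5.94, 10.1 and 8.47 in SW480 ERβ. Every SW480 library was above every HT29 library. Its inputs were uneven, at 0.31 and 1.31 in HT29 mock and ERβ and 2.69 and 1.04 in SW480 mock and ERβ.

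The NOB1 promoter bin was higher in SW480 ERβ than in HT29 ERβ by 1.42 (SE 0.374, adjusted p = 0.000769, limma). Input over the NQO1 window was 1.99 times as high in SW480 as in HT29. With signal divided by the local input the difference was 0.58 (adjusted p = 0.172, limma). Between mock cells it was 0.51 (SE 0.374, adjusted p = 0.289, limma), 0.88 after median scaling (adjusted p = 0.00013) and -0.26 with local input (adjusted p = 0.634). SW480 ERβ minus mock was 0.54 (SE 0.374), with an adjusted p of 0.222 by limma and of 0.0178 with the replicate block, and after median scaling it was -0.34 (adjusted p = 0.295). With the uneven single inputs subtracted it was 1.19 (adjusted p = 0.0159, limma).

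**Figure D3:**
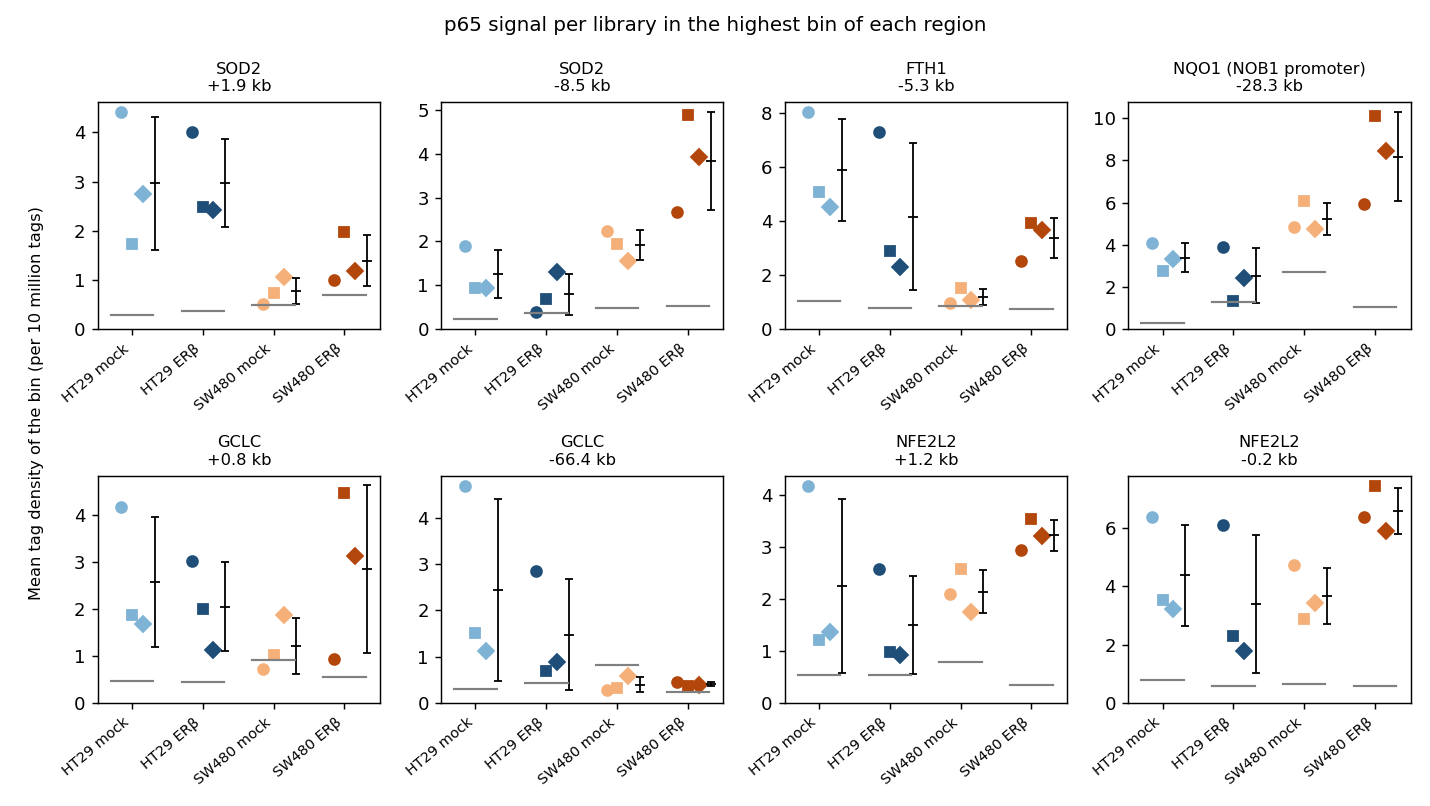
Tag density (y axis, per 10000000 tags) of each library in the highest bin of each of the 8 listed regions, with circles, squares and diamonds for the libraries numbered 1, 2 and 3, black bars for the mean ± SD of 3 libraries and grey lines for the input. In HT29 mock the circle is the highest library in every panel. By group means, the SOD2 panels at 1941 bp and -8459 bp rank the lines in opposite order, with overlap between the mock libraries at -8459 bp. Relative to input, HT29 mock (5.23 times) lay above SW480 mock (3.98 times) in that bin.

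HMOX1, TXNRD1 and GCLM had no listed bin. HMOX1, the haem oxygenase, came nearest, with a mean of 1.90 in SW480 ERβ at -21196 bp, 4.57 times the input. The highest bin of TXNRD1, thioredoxin reductase, had a mean of 1.44 in SW480 ERβ at 59921 bp, within the gene. GCLM, the modifier subunit of glutamate-cysteine ligase, had no group mean above 1.09 in any of its 323 bins. Among bins listed in no group, those just outside the limits at the other genes were a SOD2 bin at 2141 bp (1.90 in HT29 mock), beside the listed intronic bin, and 3 FTH1 bins, of which 2 adjoined the listed ones. By their highest listed group, the listed bins nearest to the limit of 2 had means of 2.06 in HT29 mock (FTH1, -4866 bp) and 2.09 in SW480 ERβ (FTH1, -4666 bp).

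The table of RefSeq promoters used here (GRCh38.p14, 250 bases before to 50 after a start) had 11 promoters of 6 of the 8 genes, since some have several starts, and none for FTH1 and HMOX1. A κB match stood in 1 of the 11, the NFE2L2 match printed above, against 9.42% of 34961 promoters. An AP-1 match stood in 0, against 4.92%. The antioxidant response letters stood in 3 of the 11, those of TXNRD1 (2 promoters) and GCLM, both without a listed bin, against 13.4%. The sites are shown in the direction of each gene, with the matched letters in capitals, which hold the searched letters or their reverse complement.
TXNRD1, chr12:104215680-104215688, + strand, 95 bases before the start: acgggctaTGACTTCGCtgttgtca
TXNRD1, chr12:104215771-104215779, + strand, same promoter: gtccttcgGCTCCGTCAgttcccac
TXNRD1, chr12:104286930-104286938, + strand, promoter of another start: ggatttctGCTTTGTCAttctgact
GCLM, chr1:93909456-93909464, - strand, 30 bases before the start: cgatttctGCTTAGTCAttgtcttc

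ERβ against mock in HT29 called 0 of the 15 bins by limma, and 0% of the 12569 listed bins. At an unadjusted p under 0.05 there were 0 members and 191 listed bins. The replicate block called 0 members and 0.0318% of listed bins. The median difference was -0.23 over the 15 bins and -0.14 over all listed bins, and 1 of the 15 was above 0.

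In SW480, ERβ against mock called 3 of the 15 bins, all higher (FTH1 at -5066 and -5266 bp, NFE2L2 at 27 bp), against 37.1% of all listed bins. The median difference was 0.61 over the 15 bins and 0.62 over all. With the replicate block 12 of 15 were called, against 71.3%. Over bins chosen by their mean in all libraries and by the fold over input in any group, 2 of 17 were called, against 24.9%. Median scaling of the libraries moved the median of all bins by -0.67, to -0.05, and that of the 15 bins to -0.04. The scaling was set on these same listed bins, so a median of all bins near 0 follows from it. Median scaling called 1 member, against 8.1% of all. That member was none of the 3 bins named above, whose adjusted p-values after scaling were 0.428, 0.362 and 0.785 (limma). Median scaling split all calls into 691 higher and 327 lower, against 4669 higher and 0 lower without it. Without SW480 mock replicate 1 or 3 or SW480 ERβ replicate 2 or 3, 0 members were called, against 19.7% to 30.3% of all listed bins, and without SW480 mock replicate 2, 1 was, against 24.3%. Without HT29 mock replicate 1 or HT29 ERβ replicate 1, 7 were, against 49.6% and 46.8%, and without SW480 ERβ replicate 1, 8 were, against 57.8%.

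Between mock cells of the lines, 4 of the 15 bins were lower in SW480 (SOD2 at 1941 bp, FTH1 at -5066 and -5266 bp, GCLC at -66399 bp) and 0 higher. The share of all listed bins called was 37.7%, 27.1% lower and 10.7% higher. SOD2 at 1941 bp was listed through the HT29 groups alone, and GCLC at -66399 bp through HT29 mock alone. Those calls in part follow from the listing. Medians were -0.36 over the 15 bins and -0.25 over all. Median scaling moved the median of all bins by 0.28 and gave 3524 higher and 3626 lower calls, against 1339 and 3404. Without HT29 mock replicate 1, 2 members were called, against 26.5%. FTH1 at -5066 bp lost its call without HT29 mock replicate 1 or any 1 of the SW480 mock libraries (adjusted p of 0.0772 to 0.303). The replicate block called 4 members, against 36.3%.

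Between ERβ cells of the lines, 6 of the 15 bins were higher in SW480 and 2 lower, against 57% of all listed bins called, 45.6% higher and 11.4% lower. The higher ones were SOD2 at -8459 bp, FTH1 at -4266 bp, NQO1 at -28140 and -28340 bp, and NFE2L2 at 1227 and -173 bp, and the lower ones SOD2 at 1941 bp and GCLC at -66399 bp. SOD2 at -8459 bp was listed through SW480 ERβ alone, and SOD2 at 1941 bp through the HT29 groups alone. Those calls in part follow from the listing. Medians were 0.39 over the 15 bins and 0.61 over all. Median scaling moved the median of all bins by -0.56 and gave 3905 higher and 3771 lower calls, against 5731 and 1434. Without HT29 ERβ replicate 2 or 3 or SW480 ERβ replicate 2, 5 members were called, against 47.5% to 49.7%, and without SW480 ERβ replicate 3, 3 were, against 48%. NQO1 at -28140 bp lost its call without HT29 ERβ replicate 2 or 3 or SW480 ERβ replicate 2 or 3 (adjusted p of 0.0515 to 0.134), and after median scaling (0.37, adjusted p = 0.0844). The replicate block called 7 members, against 55.6%. The effect of ERβ differed between the lines in 1 of the 15 bins (FTH1 at -5266 bp), against 19.3%, and in 12 with the replicate block, against 65.5%. Over the bins chosen by that mean and fold, 0 of 17 were called for ERβ in HT29 (0% of all), 5 between mock cells (33.5%), 8 between ERβ cells (45.6%) and 1 for the effect between lines (9.56%). These contrasts share libraries with each other, so their counts are not independent.

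**Figure D4:**
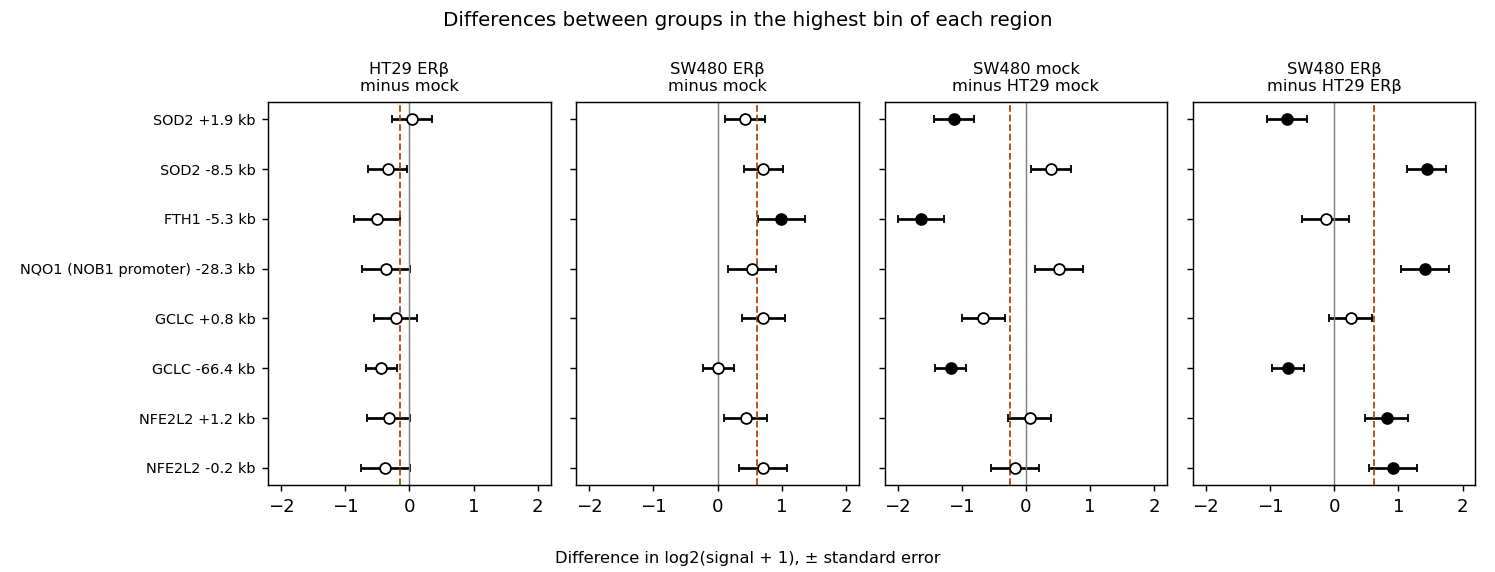
Difference in log2(signal + 1) ± SE (x axis) at the highest bin of each of the 8 listed regions (y axis) in 4 contrasts, filled where limma's adjusted p was below 0.05. The dashed line is the median of all 12569 listed bins, at -0.14, 0.62, -0.25 and 0.61 from left to right. SOD2 at 1941 bp and at -8459 bp lie on opposite sides of it between the ERβ cells of the lines.

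The promoters, from 1 kb before to 100 bp after the start site, do not depend on the listing. NFE2L2 was in the 98.5th percentile of 19970 promoters by its mean over all ChIP libraries, and its group means were 2.59 to 4.24 times the inputs. FTH1 (95.2nd percentile) and NQO1 (95.2nd) also ranked high, but NQO1 was at 0.67 to 1.65 times its inputs. Among the other 7 genes only FTH1 in SW480 ERβ passed 2 times its input (2.49). SOD2 was in the 74.6th percentile, and its 4 groups were at 0.979 to 1.87 times their inputs.

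By limma, ERβ against mock called 0 of 8 promoters in HT29 (0% of all promoters, 0 members and 698 promoters at an unadjusted p under 0.05) and 0 of 8 in SW480 (0.105% of all, 0 members and 2321 promoters unadjusted). Between mock cells 2 were higher in SW480, against 16.2% of all called and 13.8% higher, and with the replicate block 1, against 15%. Between ERβ cells 3 were higher, against 26.1% called and 24.2% higher. The effect of ERβ differed between the lines at 0 of 8 (0% of all, 0 members and 1706 promoters at an unadjusted p under 0.05). NQO1 was higher in SW480 by 0.79 between mock cells (SE 0.0828, adjusted p = 0.000497, limma) and by 0.70 between ERβ cells (adjusted p = 0.000625, limma). In the inputs the NQO1 promoter was at 0.812 and 0.777 in HT29 and 1.92 and 1.01 in SW480. FTH1 was higher in SW480 ERβ than in HT29 ERβ by 0.49 (SE 0.113, adjusted p = 0.0109, limma), and by 0.27 after median scaling (adjusted p = 0.088).

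The SOD2 promoter had signals of 0.383 to 0.586 in the HT29 libraries and 0.557 to 1.07 in those of SW480. It was higher in SW480 by 0.33 between mock cells (SE 0.0954, adjusted p = 0.0376, limma), with an adjusted p of 0.0637 with the replicate block. The call was lost without any 1 of the HT29 mock libraries, SW480 mock replicate 1 or 2, or SW480 ERβ replicate 3 (adjusted p of 0.0504 to 0.123), and after median scaling (0.24, adjusted p = 0.101). Between ERβ cells it was higher by 0.37 (adjusted p = 0.0183, limma), lost without HT29 ERβ replicate 2 (adjusted p = 0.0681) or SW480 ERβ replicate 2 (adjusted p = 0.0519) and after median scaling (0.19, adjusted p = 0.191). By density, this order is the reverse of that of the intronic bin, 1941 bp away, and input over the window was 1.83 times as high in SW480. Relative to input, the SOD2 promoter was at 1.87 times in HT29 mock and 0.979 times in SW480 mock. It was at 1.165 times in HT29 ERβ and 1.586 times in SW480 ERβ. These ratios to input were not tested. At NFE2L2, the differences between the lines were -0.17 and 0.41 (SE 0.243, adjusted p of 0.705 and 0.239, limma). Without HT29 ERβ replicate 1 the second was 0.69 (adjusted p = 0.0323, limma).

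**Figure D5:**
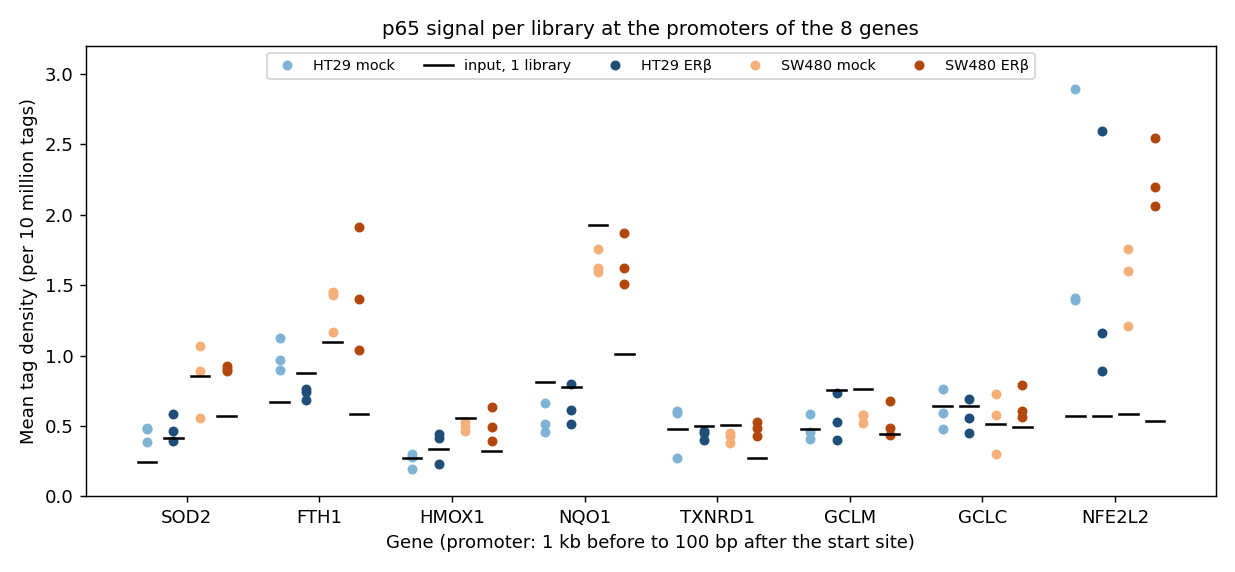
Mean tag density (y axis, per 10000000 tags) of each ChIP library over the promoters of the 8 genes (x axis), coloured by group, with the input of the group as a black line. Only NFE2L2 lies above its inputs in every library, and at NQO1 the SW480 mock libraries (1.60 to 1.76) lie below their input (1.92).

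The intronic SOD2 bin was set beside the 765 highest bins of other genes with a mean of at least 4. The nearest in their pattern over the 12 ChIP libraries were bins at NXT2 (Pearson r of 0.969), CCT2 and FRS2 (0.966), PDCD5 (0.966), CCDC192 (0.962), and PHKG2, RNF40, SRCAP and TMEM265, which share 1 bin (0.961). At NXT2 the group means were 11.7 and 9.98 in HT29 mock and ERβ and 1.02 and 1.88 in SW480 mock and ERβ. These correlations share the level of each library over all bins and are a description.

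Of 46 further genes of the antioxidant system, 17 (37%) had a listed bin, with 66 bins in all, against 31.4% of protein-coding genes. ERβ against mock called 0 of the 66 in HT29 (0% of all listed bins) and 18 higher and 0 lower in SW480 (27.3%, against 37.1% of all). Between mock cells 2 were higher and 18 lower in SW480 (30.3%, against 37.7% of all), and between ERβ cells 25 were higher and 6 lower (47%, against 57% of all).

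The highest bins on that list exceeded those of the 8 genes, and 2 of the 10 highest were nearest to the start of another gene. The bin in the window of PRDX2, a peroxiredoxin, was 2214 bp from the start of JUNB and had means of 11.9, 8.92, 19.8 and 29.3 in HT29 mock, HT29 ERβ, SW480 mock and SW480 ERβ. MAFF, a small MAF partner of NRF2, had 11.8, 9.93, 20.3 and 25.3 at 16706 bp, and SQSTM1, the autophagy receptor that binds the NRF2 repressor KEAP1, had 13, 10.4, 14 and 21.7 at -1805 bp. These 3 bins had adjusted p-values by limma of 0.202 to 0.535 between ERβ and mock in SW480 and of 0.0966 to 0.803 between mock cells. With the replicate block, PRDX2 (adjusted p = 0.0298) and SQSTM1 (adjusted p = 0.0142) passed between ERβ and mock in SW480. Between ERβ cells the 3 bins were higher in SW480 by 1.69 (PRDX2, adjusted p = 9.56e-05, limma), 1.28 (MAFF, adjusted p = 0.0026) and 1.08 (SQSTM1, adjusted p = 0.0124). The SQSTM1 call was lost without HT29 ERβ replicate 2 or 3 or SW480 ERβ replicate 2 (adjusted p of 0.0679 to 0.0963), and after median scaling (0.32, adjusted p = 0.108).

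GSTP1, a glutathione transferase, had a listed bin at its promoter (-312 bp), with means of 11.8, 8.21, 4.49 and 12.6 in the same order of groups. This bin was not listed in SW480 mock, where its mean of 4.49 lay under 4 times the input. The signal of this bin was higher with ERβ in SW480 by 1.23 (adjusted p = 0.0113, limma), beside a median of 0.62 over all listed bins, and by 0.33 after median scaling (adjusted p = 0.274). That call was lost without SW480 mock replicate 2 or SW480 ERβ replicate 2 or 3 (adjusted p of 0.0517 to 0.0859). The bin was lower in SW480 mock than in HT29 mock (difference -1.16, adjusted p = 0.0142, limma), a call lost without HT29 mock replicate 1 or SW480 mock replicate 2 (adjusted p of 0.0595 to 0.0982). BACH1, a repressor of HMOX1, had a bin at -130022 bp, nearest to the start of MAP3K7CL, with means of 9.6, 8.73, 0.656 and 3.09. Signal in this bin of the BACH1 window was higher with ERβ in SW480 by 1.26 (adjusted p = 0.00619, limma) and by 0.65 after median scaling (adjusted p = 0.0265), and without SW480 ERβ replicate 3 the adjusted p was 0.0855. It was lower in SW480 than in HT29 between mock cells (difference -2.62, adjusted p = 3.2e-08, limma) and between ERβ cells (-1.23, adjusted p = 0.00357). ME1, the cytosolic malic enzyme, TALDO1, GPX2 and MAFK were also among the 10 highest. The windows of ME1, TALDO1 and MAFK had no bin listed in HT29 ERβ or in SW480 mock. With ERβ in SW480, signal was higher by 1.03 in the ME1 bin at -49 bp (adjusted p = 0.0231, limma) and by 0.83 in the MAFK bin at 398 bp (adjusted p = 0.0451, limma). After median scaling these were 0.18 (adjusted p = 0.633) and 0.19 (adjusted p = 0.599). The ME1 call was lost without SW480 mock replicate 2 or 3 or SW480 ERβ replicate 2 or 3 (adjusted p of 0.0732 to 0.107). Between ERβ cells the ME1 bin was higher in SW480 by 1.57 (adjusted p = 0.000172, limma) and by 0.91 after median scaling (adjusted p = 7.63e-05). That call held without any single library. The MAFK call was lost without HT29 mock replicate 3, HT29 ERβ replicate 2, any 1 of the SW480 mock libraries, or SW480 ERβ replicate 2 or 3 (adjusted p of 0.0506 to 0.212). The MAFK bin was lower in SW480 mock than in HT29 mock (difference -1.36, adjusted p = 0.000714, limma). The ERβ effect differed between the lines at GSTP1 (1.74, adjusted p = 0.0217, limma), ME1 (1.64, adjusted p = 0.0209) and MAFK (1.27, adjusted p = 0.0479). After median scaling these were 0.62, 0.62 and 0.47 (adjusted p of 0.219 to 0.459). Leaving out 1 library lost them in 6, 6 and 9 of 12 cases. For TALDO1 at -364 bp the difference between ERβ and mock in SW480 was 0.745, with an adjusted p of 0.0956 by limma and of 0.0012 with the replicate block.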

How the data were processed

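p65 ChIP-Seq of HT29 and SW480 cells was read from 16 deposited coverage tracks. STAR alignments to GRCh38, limited to uniquely placed reads, were turned into tracks with HOMER by the authors. Versions are not given in the sources used here. The deposited signal is the density of tags at each base for a library of 10000000 tags and fragments of 100 bp, without values under 0.05. Depth and read counts could not be recovered from it, so no count test was run. ERβ inputs came from another series of libraries, per the study's methods.

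Signal was averaged per 200-bp bin or promoter in Python 3.11.15 (pysam 0.24.0, pandas 2.3.3, numpy 2.4.6), with genes from GENCODE 44. Groups follow the labels. log2(signal + 1) was fitted with limma 3.58.1 in R 4.3.3 (mean-variance trend, 4 group means, 12 libraries), adjusted over 12569 listed bins or 19970 promoters. The fit was tested on simulated data. Figures used matplotlib 3.10.9.

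Same-numbered mock and ERβ libraries deviated together over listed bins (r of 0.58, 0.235 and 0.261 in HT29, 0.316, 0.143 and 0.226 in SW480, all over 0.1), so the numbers were taken as pairs. In HT29, mock 2 with ERβ 3 (0.277) and mock 3 with ERβ 2 (0.195) also correlated, so there only number 1 stood apart. The labels do not say what a number shares. For ERβ against mock, and for the effect between lines, the block was the number within each line. For contrasts between the lines it was the number shared by both lines, and whether such libraries pair was not tested. The 8 genes, the lists and the tests were chosen with earlier results of these data known. All 8 genes are named, each listed region by its highest bin, the 10 pathway genes with the highest bins (1 of them is not reported here) and the 5 bins most like that of SOD2. Individual bins and library subsets outside that rule were named after their values were seen.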

Additional observations from a re-analysis of the deposited data

Results flagged for a closer look

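The difference of the ERβ effect between the lines (SW480 minus HT29) passed the threshold at 1 of the 8 highest bins of a region, and at 5 more with the replicate block. At FTH1, -5266 bp, the difference of the effects was 1.5 (SE 0.51, adjusted p = 0.0302, limma). It was 0.63 after median scaling (adjusted p = 0.266), and the call was also lost without HT29 mock replicate 1, HT29 ERβ replicate 2 or 3, SW480 mock replicate 1 or 3, or SW480 ERβ replicate 2 or 3 (adjusted p of 0.0608 to 0.13). This was 1 of 15 bins, against 19.3% of all listed bins, with 9 called without HT29 ERβ replicate 1, against 50.2%, and 6 without SW480 ERβ replicate 1, against 43.1%. With the replicate block 12 of 15 were called, against 65.5%, and 5 more of the highest bins passed by limma. They were SOD2 at -8459 bp (1.05, adjusted p = 0.00146), NQO1 at -28340 bp (0.91, adjusted p = 0.00648), GCLC at 801 bp (0.92, adjusted p = 0.00501), NFE2L2 at 1227 bp (0.76, adjusted p = 0.0177) and NFE2L2 at -173 bp (1.08, adjusted p = 0.00129). Without the block their adjusted p-values were 0.068 to 0.193. SOD2 (0.0422), NQO1 (0.00293) and GCLC (0.0448) also passed after input subtraction. NQO1 (0.0451), GCLC (0.0266), both NFE2L2 bins (0.0426 and 0.0138) and GCLC at -66399 bp (difference 0.82, adjusted p = 0.0319) passed without HT29 ERβ replicate 1, and SOD2 (0.0193) and GCLC at 801 bp (0.0223) without SW480 ERβ replicate 1. NFE2L2 at -173 bp (0.0233) passed without both HT29 libraries numbered 1. After median scaling the differences were 0.12 (SOD2), -0.13 (NQO1), 0.10 (GCLC), -0.12 (NFE2L2, 1227 bp) and 0.08 (NFE2L2, -173 bp), with adjusted p-values of 0.878 to 0.94. The median of this difference was 0.91 over the 15 bins and 0.77 over all listed bins, and median scaling moved the latter by -0.80. The level of the libraries over all bins moved the same way, and its part in these differences was not tested. The scaling removes a shift shared by most bins whatever its source.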

How the results depend on the processing

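Of 80 differences at single bins and promoters, 16 passed the threshold, 46 passed under no setting, 18 passed under some other setting and 0 changed sign as a call. Counts of members called that changed by over 1.5 times are as follows, with the share of all features called under the same setting in parentheses, and the cause was not tested. Median scaling gave 1 bin for SW480 ERβ minus mock (8.1%), 7 between mock cells (56.9%) and 0 for the effect between lines (1.26%). It gave 1 promoter between mock (13.1%) and 1 between ERβ cells (11.7%). Its 1 bin for SW480 ERβ minus mock was none of the 3 called without scaling. The replicate block, for the pairing of libraries, gave 12 bins for SW480 ERβ minus mock (71.3%) and 12 for the effect between lines (65.5%). With the number shared by both lines it gave 1 promoter between mock cells (15%). Beside the values given with each result, the block changed no other call of the highest bin of a region. Input subtraction gave 8 bins for SW480 ERβ minus mock (54.4%) and 8 for the effect between lines (44.1%). Stricter limits (group mean of 3, 6-fold) listed 7 bins, so fewer were tested, and called 1 between mock cells (40.1%), 5 between ERβ cells (58.9%) and 0 for the effect between lines (24.9%). The grid shifted by 100 bp called 5 of 19 for SW480 ERβ minus mock (36.3%), and local input called 5 between ERβ cells (52.3%). Fitting 2 groups alone gave 8 for SW480 ERβ minus mock (47.9%) and 5 between ERβ cells (53.4%). Leaving out both HT29 libraries numbered 1, a choice made after seeing the data, gave 9 for SW480 ERβ minus mock (64.4%), 2 between mock cells (30.1%), 3 for the effect between lines (36.8%) and 1 promoter between mock cells (12.4%).

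Changes within 1.5 times included 6 bins between mock cells with input subtraction (38.4%). Between ERβ cells they included 6 with median scaling (61.1%), 7 with the block (55.6%) and 9 with the shifted grid (57%). The 6 with median scaling were not all among the bins called without it. FTH1 at -4266 bp, NQO1 at -28140 bp and NFE2L2 at 1227 and -173 bp, all higher before, lost their calls. FTH1 at -5266 bp was newly called, as lower in SW480 (-0.73, adjusted p = 0.00121, limma).

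Leaving out 1 library at a time listed 13 to 16 bins. It called 0 to 8 bins for SW480 ERβ minus mock (19.7% to 57.8% of all listed bins) and 2 to 6 between mock cells (26.5% to 41.4%). Between ERβ cells it called 3 to 8 (47.5% to 64.4%), and for the effect between lines 0 to 9 (7.69% to 50.2%). Of the promoters, 1 to 3 were called between mock cells (9.59% to 16.4% of all promoters) and 2 to 4 between ERβ cells (16% to 26.3%). Depth is unknown from the tracks, so a bin under the limits may hold binding.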
